A study of Mus musculus with 12 samples.

Results

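miR-26a and miR-26b (mmu-miR-26a and mmu-miR-26b in the table) are paralogous microRNAs of the same seed, and both were measured in mouse blood on an array of 710 mouse miRNAs. They were taken by exact match of their IDs, which gave 2 of the 710 rows. The study compared 6 Tff3 knockouts, labelled tff3 KO, with 6 mice labelled wild type, with 3 mice of each sex per genotype. The gene Tff3 codes for a trefoil peptide that mucus-producing epithelia secrete. The labels name no strain, age, allele construction or treatment of the animals, and the design text calls the animals a knock-down where the labels say knockout. The array holds no probe for Tff3, so its expression cannot serve as a check of the labels. RNA was total RNA of unsorted peripheral blood from separate animals. In such bulk RNA, fewer cells of a type and less miRNA per cell cannot be told apart.

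A miRNA guides the silencing complex to messenger RNAs through its seed, bases 2 to 8 of the mature strand. Mature miR-26a and miR-26b are cut from hairpins in introns of the Ctdsp genes, which encode small phosphatases that act on the C-terminal domain of RNA polymerase II, and miRNA and host are known to be made from the same transcripts. miR-26 is widely expressed, restrains cell cycle genes, represses the chromatin methyltransferase Ezh2, and is itself repressed by Myc in lymphoma cells.

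The mature strands are shown first because the pair shares its seed, and hence many predicted targets, while the array reads the strands with separate probes. Sequences are those of RefSeq on GRCm38.p6, and capitals mark the seed.
miR-26a: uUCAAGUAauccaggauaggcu
miR-26b: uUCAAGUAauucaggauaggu
Counted from 1 at the 5′ end, the strands are the same at 19 of 21 shared positions. The differences, with miR-26a given first, are C11U and C21U, and miR-26a has 1 further base at its 3′ end. GC content is 40.9% in miR-26a and 33.3% in miR-26b. Of 1679 mature mouse miRNA names in RefSeq, these 2 alone carry the seed UCAAGUA. No other of those strands lies within fewer than 8 edits (substitutions, insertions or deletions) of either one, whereas 2 edits turn miR-26a into miR-26b. Of the 246 table IDs that could be tied to 1 strand, the closest were miR-1906 and miR-194, both 10 edits from miR-26a, and miR-384-5p and miR-467h, both 9 edits from miR-26b. The IDs left out may hold closer strands, since miR-155 is among them and miR-155-5p is 1 of the strands at 8 edits. How far the probe of one paralogue also reads the other was not tested.

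The hairpins show why the miR-26a probe cannot tell its loci apart, since both contain the same mature strand, here in capitals.
Mir26a-1, within Ctdspl, chr9:119031796-119031885, plus strand: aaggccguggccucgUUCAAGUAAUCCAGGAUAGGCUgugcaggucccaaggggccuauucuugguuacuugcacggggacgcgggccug
Mir26a-2, within Ctdsp2, chr10:126995530-126995613, plus strand: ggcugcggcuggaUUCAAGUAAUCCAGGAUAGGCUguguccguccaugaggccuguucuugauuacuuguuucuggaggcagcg
Mir26b, within Ctdsp1, chr1:74394310-74394394, plus strand: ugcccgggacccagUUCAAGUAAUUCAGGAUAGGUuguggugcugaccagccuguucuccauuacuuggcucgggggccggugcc
A miR-26a value therefore sums the output of Mir26a-1 and Mir26a-2. miR-26b comes from Mir26b alone. The third ID of the family in the table, miR-26b*, is the passenger strand of the same hairpin, whose RefSeq sequence is given with its own seed in capitals.
miR-26b*: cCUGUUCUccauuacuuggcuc
The passenger strands of the miR-26a hairpins have no ID among the 710 rows and so could not be examined.

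Arrays differed in brightness. Summed intensity ran from 391740 in wild-type column 11 to 1111471 in wild-type column 8, and from 472963 to 814468 in the knockouts. No 2 arrays held the same values, and the lowest correlation between 2 arrays over all miRNAs was 0.911. Knockout columns carry the numbers 1 to 6 of the labels. Wild-type columns of the intensity table are numbered 7 to 12 and the labelled wild types 1 to 6, so these columns carry a genotype but no sex. With 12 arrays, precision is limited by their number.

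miR-26a was bright on every array. Its deposited intensity, on a linear scale, was 6314, 6126, 6470, 6826, 8698 and 6878 in knockouts 1 to 6. In wild types it was 7462 in column 7, 10735 in column 8, 6986 in column 9, 5065 in column 10, 4949 in column 11 and 2669 in column 12. The knockouts spanned 1.42-fold and lay inside the range of the wild types, which spanned 4.02-fold with column 8 highest and column 12 lowest. By brightness miR-26a stood between places 16 and 34 of 710 on each array, although probe brightness also depends on the probe and does not rank amounts of different miRNAs.

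miR-26b was dimmer and more variable among wild types. Knockouts 1 to 6 read 420, 432, 296, 492, 320 and 364, a 1.66-fold span. Wild-type columns 7 to 12 read 920, 620, 284, 248, 216 and 168, a 5.48-fold span. Columns 7 and 8 exceeded every knockout, and columns 9 to 12 were below every knockout, so in intensity the wild types lay on both sides of the knockouts. The normalized levels of the genotypes overlapped. miR-26b* was near the bottom of the array, with intensities from -28 to 52 in knockouts and from 0 to 32 in wild types. Several of these readings were at or below 0, so the strand is given no fold change.

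**Figure D1:**
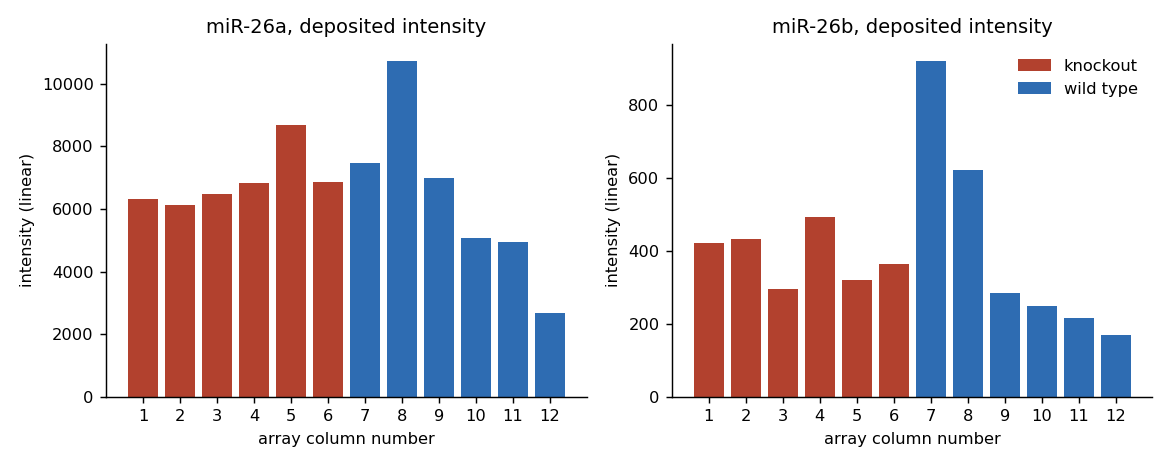
Deposited intensity (linear, vertical axis) of miR-26a on the left and miR-26b on the right for each array column, with knockouts in red and wild types in blue; each bar is 1 animal. Wild-type columns 7 and 8 stand above all knockouts for miR-26b, at 920 and 620, and columns 9 to 12 below them, while miR-26a ranges from 2669 to 10735. The bars are not adjusted for array brightness, and summed intensity ran from 391740 to 1111471.

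For comparison between arrays, intensities were quantile-normalized and given as log2(intensity + 50), called the level. A fold on this scale understates the change of dim miRNAs. Neither member differed between genotypes beyond the spread of the animals. For mmu-miR-26a the mean level was 12.80 ± 0.38 over knockouts and 12.69 ± 0.48 over wild types (SD, n = 6 each). Knockout minus wild type was 0.12 on the log2 scale (standard error 0.23) with a 95% confidence interval from -0.37 to 0.60 (limma, adjusted p = 0.889 over all 710 miRNAs). Knockouts ran from 12.28 in knockout 6 to 13.27 in knockout 4, and wild types from 11.91 in column 12 to 13.27 in column 11, so the groups overlapped almost throughout. Without wild-type column 12 the difference was -0.04, and without column 11 it was 0.23.

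For mmu-miR-26b it was 8.83 ± 0.35 over knockouts and 8.56 ± 0.69 over wild types (SD, n = 6 each). Knockout minus wild type was 0.27 (standard error 0.27, 95% confidence interval -0.31 to 0.84; limma, adjusted p = 0.832). Knockouts lay between 8.42 and 9.37. Wild-type columns 7 and 8 were at 9.65 and 8.85, and columns 9 to 12 between 7.54 and 8.57. Leaving out column 12, the lowest for both members, brought the difference to 0.06, and leaving out column 7, the highest for miR-26b, brought it to 0.47. With columns 1 to 8 and 9 to 12 as 2 blocks, a split known from earlier results that no label names as a batch, the difference turned to -0.42 with a standard error of 0.31 (limma, adjusted p = 0.816). That fit, like one of columns 1 to 8 alone with the same difference, sets the knockouts against wild-type columns 7 and 8, while columns 9 to 12 hold wild types only.

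For miR-26b* the levels were 5.52 ± 0.83 over knockouts and 6.02 ± 0.22 over wild types (SD, n = 6 each; limma, adjusted p = 0.638). Of all 710 miRNAs, 0 passed limma's test (0%). Without adjustment 64 were under 0.05 (9.01%), neither member among them. An exact Wilcoxon rank-sum test gave 0 calls too, with 53 under 0.05 before adjustment. Groups that did not overlap were seen for 0.704% of miRNAs and for neither member.

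**Figure D2:**
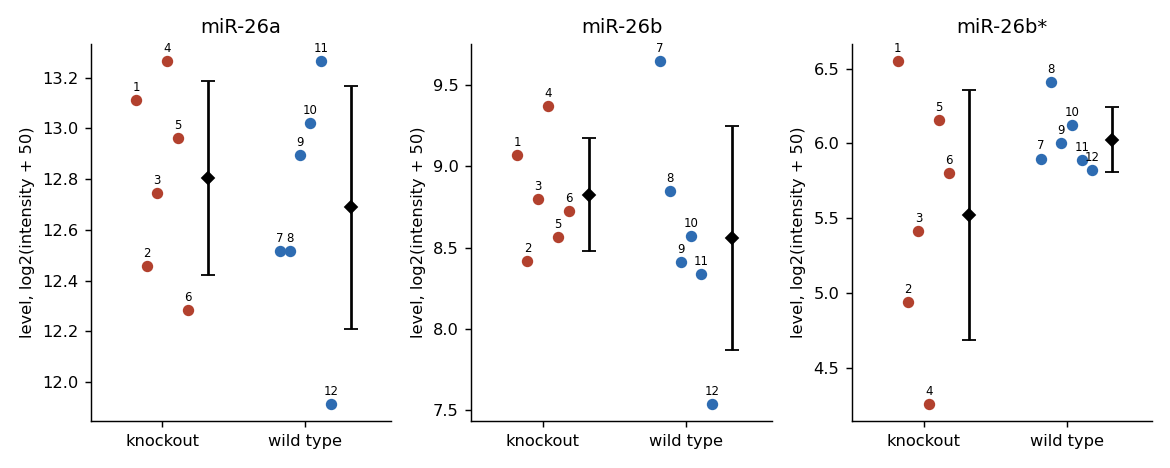
Level, log2(quantile-normalized intensity + 50), of miR-26a, miR-26b and miR-26b* in knockouts (red) and wild types (blue); each point is 1 array with its column number, and the black diamond and bar give the mean and SD of 6. The groups overlap in all 3 panels, and wild-type column 12 is lowest for miR-26a at 11.91 and for miR-26b at 7.54.

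The paralogues were compared through the per-array difference of their levels, miR-26a minus miR-26b, which asks whether genotype moved them unequally. The genotype difference of miR-26a minus that of miR-26b was -0.15 on the log2 scale (exact two-sided permutation p = 0.667, n = 6 each), and its sign was positive under 3 other treatments of the arrays (75th percentile scaling, cyclic loess, none). An unequal change was thus not detected, and an equal one was not shown.

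Across the 12 arrays the levels of the paralogues were only weakly related. Pearson's r was 0.39 (permutation p = 0.206, adjusted p = 0.263 over 3 relations) and Spearman's rho 0.19 (permutation p = 0.553, adjusted p = 0.553). Without knockout 6 and wild-type column 12, the arrays farthest from the median of miR-26a, r was -0.10, so the relation rested on those arrays. Within the knockouts r was 0.73 and within the wild types 0.24 (n = 6 each). Wild-type column 11 was highest among wild types for miR-26a, at 13.27, and next to lowest for miR-26b, at 8.34. Column 7 was highest for miR-26b, at 9.65, and was at 12.52 for miR-26a.

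**Figure D3:**
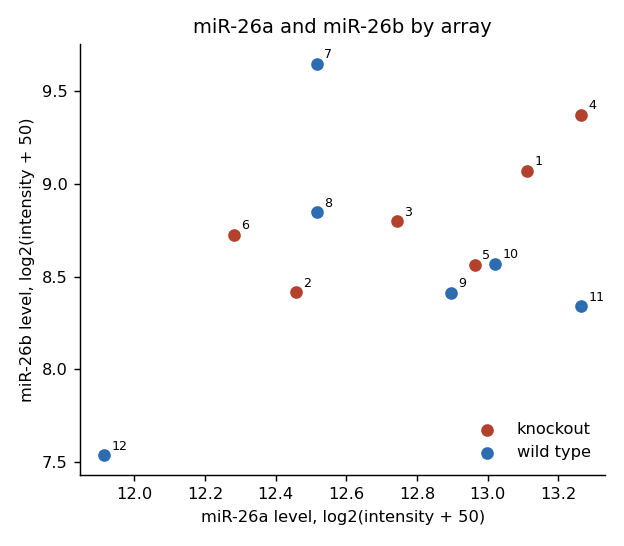
Level of miR-26a (horizontal axis) against miR-26b (vertical axis), both log2(quantile-normalized intensity + 50), for 12 arrays marked by column number, knockouts in red and wild types in blue. Column 12 lies lowest on both axes, column 7 is highest for miR-26b at 9.65, and the remaining arrays show no common line.

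No relation of array brightness to either member passed the test with the genotypes pooled. Over 12 arrays, the log2 of summed intensity and the level of miR-26a had r = -0.42 and rho = -0.55 (permutation p = 0.175 and 0.0635, adjusted p = 0.263 and 0.191), and r was -0.27 without wild-type columns 8 and 11. For miR-26b r was 0.35 and rho 0.43 (permutation p = 0.263 and 0.171, adjusted p = 0.263 and 0.257), and r was 0.33 without those columns. Within the knockouts both were negative, with r of -0.87 for miR-26a and -0.94 for miR-26b. Within the wild types they were -0.30 and 0.64 (n = 6 each). The values within genotypes were not tested, and for miR-26b the pooled value joins opposite signs. The sums themselves spanned 1.72-fold in knockouts and 2.84-fold in wild types, and the part of brightness in the members' values was not tested beyond this.

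The miRNAs whose levels ran most like miR-26b over the 12 arrays were miR-374, let-7e, miR-142-5p, miR-468 and miR-19a. Pearson's r, the measure of likeness, was 0.94, 0.92, 0.90, 0.84 and 0.83 in that order, as a description of arrays that share normalization and brightness. Let-7e belongs to the let-7 family, which represses growth genes, miR-142-5p is abundant in blood leukocytes, and miR-19a is a member of a cluster that Myc induces. miR-374 was not tied to a single RefSeq strand. The ID miR-468 names no arm and was matched to miR-468-5p, whose seed also differs from that of miR-26 and whose GC content is 37.0%. Whether the probe reads that strand was not tested, and its sequence is not shown. Sequences are given for the other 3, to set their seeds and base composition beside miR-26b.
let-7e: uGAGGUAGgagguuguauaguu
miR-142-5p: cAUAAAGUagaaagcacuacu
miR-19a: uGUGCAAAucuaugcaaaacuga
None has the seed of miR-26. Their GC content is 40.9%, 33.3% and 34.8%, against 33.3% in miR-26b, and its part in the likeness was not tested.

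All 5 had their lowest level in wild-type column 12, as miR-26b did, and all but miR-374 had their highest in column 7, where miR-374 was second. miR-374 had an intensity of 784, 932, 736, 1100, 1004 and 784 in knockouts 1 to 6, and 1881, 1797, 544, 424, 336 and 296 in wild-type columns 7 to 12. For miR-142-5p the knockouts read 1865, 2045, 932, 1445, 1180 and 1273, and the wild types 3753, 3241, 1117, 684, 472 and 424. In intensity both thus had wild-type columns 7 and 8 above every knockout, and columns 10 to 12 below every one. The separation was kept only in part in the normalized levels. miR-374 was at 10.53 in knockout 4 against 10.48 and 10.09 in columns 7 and 8. Its columns 10 to 12, at 9.18, 9.07 and 8.35, stayed below the lowest knockout, at 9.42. miR-142-5p was at 11.10 in knockout 1 against 10.83 in column 8, and at 10.04 in knockout 6 against 10.12 in column 10. Within genotypes the likeness of miR-374 to miR-26b was 0.87 in knockouts and 0.95 in wild types, and that of miR-142-5p 0.60 and 0.97. For let-7e it was 0.75 and 0.95, for miR-468 0.44 and 0.92, and for miR-19a 0.63 and 0.93. Leaving out each array in turn kept r for miR-374 between 0.88 and 0.95 and for miR-142-5p between 0.83 and 0.93. It was 0.88 to 0.93 for let-7e, 0.74 to 0.89 for miR-468 and 0.77 to 0.89 for miR-19a. All 5 were picked for their high r over these same arrays, so the ranges are a description only. Across 3 other normalizations, 2 other offsets and the authors' normalized table, r for the 5 ranged from 0.71 to 0.96. Their genotype differences were 0.44, 0.16, 0.27, 0.10 and 0.45 on the log2 scale, and none passed limma's test, with adjusted p from 0.638 to 0.885.

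**Figure D4:**
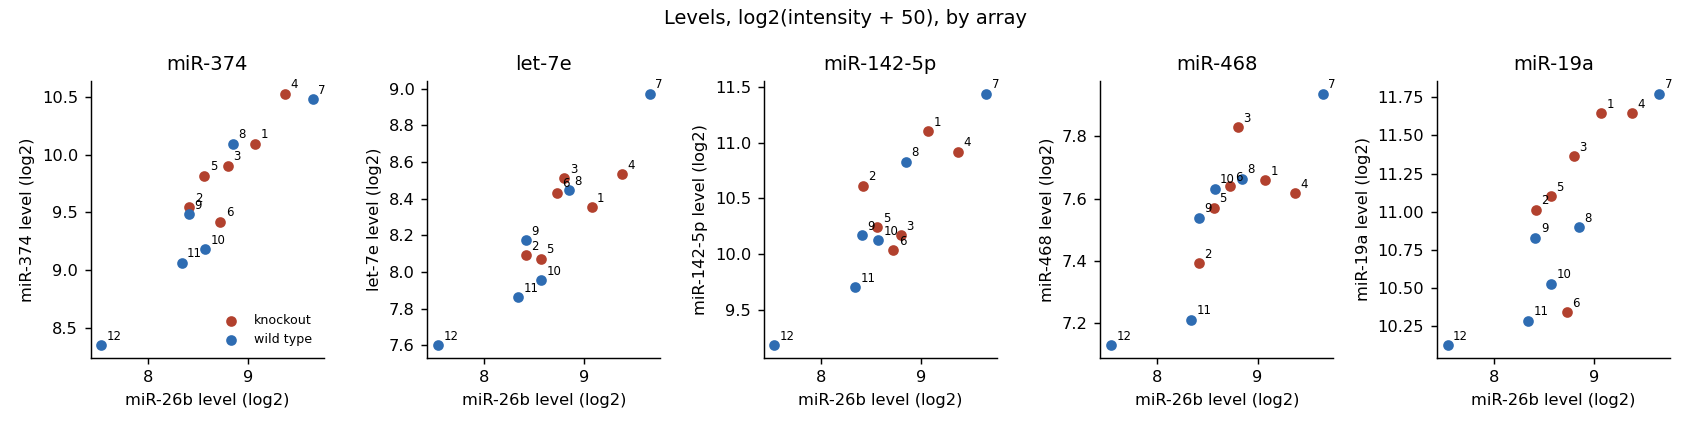
Level of miR-26b (horizontal axis) against that of miR-374, let-7e, miR-142-5p, miR-468 and miR-19a (vertical axes), all log2(quantile-normalized intensity + 50), with 1 point per array marked by column number, knockouts in red and wild types in blue. Points rise together in each panel, with r from 0.83 to 0.94, column 12 at the lower left and column 7 at the upper right.

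The miRNAs most like miR-26a were less alike than those of miR-26b with quantile normalization. They were miR-130b* with r = 0.72, let-7d with 0.69, miR-1982.1 with 0.67, miR-1187 with 0.66 and miR-376a with 0.65. With scaling to the 75th percentile the values for miR-130b*, miR-1982.1 and miR-376a were 0.04, -0.01 and -0.20, and with no normalization 0.06, 0.09 and -0.30. let-7d and miR-1187 stood at 0.40 and 0.29 with cyclic loess, at 0.83 and 0.76 with scaling to the 75th percentile, and at 0.81 and 0.73 with no normalization. miR-26b was only the 63rd most like miR-26a, and miR-26a the 109th most like miR-26b.

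Sex could be examined in the authors' normalized table, whose columns are named by sample. Its values follow the ranks of the intensity table, and levels are again log2(value + 50). miR-26a was at 12.90, 12.24 and 12.56 in male knockouts, 12.32, 12.32 and 12.68 in male wild types, 13.04, 12.75 and 12.07 in female knockouts and 12.82, 13.04 and 11.68 in female wild types. All 4 groups overlapped. The difference female minus male, with genotype in the fit, was 0.06 with a standard error of 0.23 (95% confidence interval -0.43 to 0.56; limma, adjusted p = 0.929).

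miR-26b was at 8.94, 8.33 and 8.69 in male knockouts, 9.48, 8.74 and 8.33 in male wild types, 9.21, 8.47 and 8.62 in female knockouts and 8.47, 8.25 and 7.51 in female wild types. The female wild types included the lowest animals, and only 1 of the 3 overlapped the female knockouts. Female minus male was -0.33 with a standard error of 0.25 (95% confidence interval -0.87 to 0.21; limma, adjusted p = 0.579). Knockout minus wild type was -0.20 in males and 0.69 in females, and the interaction, the difference between these, was 0.89 with a standard error of 0.46 and a 95% confidence interval from -0.10 to 1.87 (limma, adjusted p = 0.679). A sex-dependent difference of miR-26b was therefore not detected, though the interval allows a large one. For miR-26a the interaction was -0.02 with a standard error of 0.48 (limma, adjusted p = 0.995).

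Over the table, the fit for sex called 1 of 710 miRNAs (0.141%), while 87 had an unadjusted p under 0.05 (12.3%), and for the interaction limma called 0 (0%), with 42 at an unadjusted p under 0.05 (5.92%). The 1 call was miR-122, the main miRNA of hepatocytes, named here after its values were seen, at 3.44 higher in females on the log2 scale with a standard error of 0.60 (limma, adjusted p = 0.0357). There were 0 calls without any one of the wild types, without knockout 1 or knockout 2, with a trended robust variance, without the genotype covariate, or within the knockouts of the intensity table alone.

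**Figure D5:**
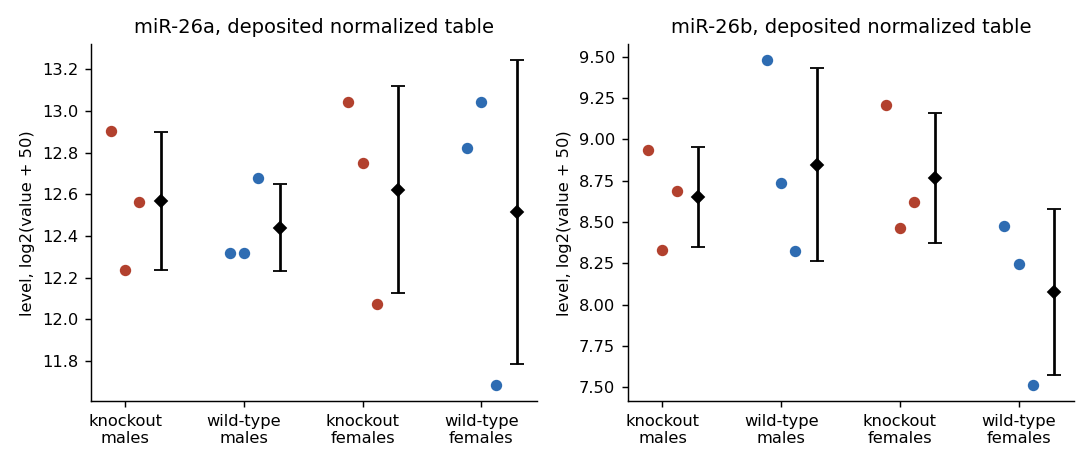
Level, log2(value + 50) of the authors' normalized table, of miR-26a (left) and miR-26b (right) by genotype and sex; each point is 1 animal, and the black diamond and bar give the mean and SD of 3. For miR-26b the female wild types reach down to 7.51, and the other groups lie between 8.33 and 9.48.

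As background for the members, 22 other miRNAs that Myc represses in lymphoma cells, miR-26 being a known member of that set, were all measured. Of these 16 had a positive and 6 a negative difference, with a median of 0.08 on the log2 scale, beside 351 of 710 positive (49.4%) and a median of -0.0015 over the table. None passed limma's test, and 3 of 22 had an unadjusted p under 0.05, where 9.01% of the table did. The brightest were miR-16, at 15.07 ± 0.30 in knockouts and 14.94 ± 0.12 in wild types, let-7d at 13.36 ± 0.18 and 13.41 ± 0.25, and miR-30b at 13.57 ± 0.18 and 12.99 ± 0.40 (SD, n = 6 each). Leaving out each array gave 11 to 16 positive of the 22, the 11 without wild-type column 12. With the column blocks 9 of the 22 were positive, and the difference of miR-30b went from 0.58 to 0.12. The miRNAs other than miR-26 listed as repressing Ezh2, namely miR-101a, miR-101b and miR-138, had differences from -0.04 to 0.31, and 0 of 3 passed, none of them at an unadjusted p under 0.05 either.

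Blood cell markers gave the following mean levels beside these values. The 4 erythroid miRNAs were at 11.45 to 12.05 in knockouts and 11.23 to 11.84 in wild types. Platelet miRNAs (6) lay at 8.57 to 9.07 and 8.76 to 8.98. Myeloid miRNAs (4) lay at 8.94 to 9.19 and 8.60 to 9.88, highest in wild-type column 8. Lymphocyte miRNAs (6) were miR-150, miR-342-3p, and miR-181a, miR-181b, miR-181c and miR-181d, which are of the same family and so not unrelated readings. The list lay at 7.70 to 8.71 and 8.60 to 9.26, and 5 of 6 had a negative difference. The sixth, miR-150, the brightest of them, was at 0.16, and 4 of 6 had an unadjusted p under 0.05, where 9.01% of the table did, with none past the threshold. Stromal miRNAs (6) lay at 7.20 to 8.67, highest in knockout 6, and 7.34 to 7.91. Skeletal and heart muscle miRNAs (4) lay at 6.79 to 8.09 and 6.94 to 7.49, and miR-122 at 6.68 to 12.34 and 6.95 to 12.90. None of the 31 listed markers had a mean intensity at or below 0, the lowest being miR-1 with 30.0, and their part in the levels of miR-26a and miR-26b was not tested.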

How the data were processed

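The authors deposited 1 table of array intensity values for 710 miRNAs and 12 arrays on a linear scale. It has 282 values below 0 and column medians from 72 to 188, so it looks background-subtracted and not normalized, although no header or label states either. Labelling was by a primer extension assay with biotin, per the labels' protocols; the labels name no scanner, miRBase release or genome build. A second deposited intensity table, named by sample, has a floor of 1, column medians from 99.7 to 104 and nearly the same sorted values in each column, as after quantile normalization on a linear scale. Knockout columns had a rank correlation of at least 0.99997 with their own intensity columns.

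Intensities were quantile-normalized and transformed to log2(value + 50), and differences were fitted by lmFit and eBayes of limma 3.58.1 (R 4.3.3), two-sided, Benjamini-Hochberg over all 710, threshold 0.05. No miRNA was filtered out. Single values used exact permutation over all 924 arrangements, and correlations 100000 permutations. The genotype fit and the permutation code were tested on simulated data. Sex used the second table, since its columns name the samples. Names without an arm were matched to RefSeq strands by hand for miR-26a, miR-26b, let-7d, let-7e and miR-19a. The members, the lists and the column blocks were chosen with earlier results of these data known. Genes named are the members and passenger strand, the 5 miRNAs most alike in level, the 2 closest in sequence and up to 3 of the brightest of a list. Figures used matplotlib 3.10.9 in Python 3.11.15.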

Additional observations from a re-analysis of the deposited data

Results flagged for a closer look

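In 50 groups of 6 arrays, both genotypes of each named miRNA and list, 6 had 1 array standing apart by its gap to the nearest (12%). About 5% would by chance if the groups were unrelated. They share the same 12 arrays, and some lists share members with the named miRNAs, so the count cannot show an excess. None of the 6 was a group of miR-26a, miR-26b or miR-26b*. miR-16 was at 15.63 in knockout 1, with the other knockouts at 14.72 to 15.02, and at 14.72 in wild-type column 9, with the others at 14.91 to 15.02. miR-30b was at 13.92 in knockout 3, with the other knockouts at 13.39 to 13.54. The mean of the myeloid list was 9.88 in wild-type column 8, with the other wild types at 8.60 to 9.02. In knockout 6 the mean of the stromal list was 8.67, with the others at 7.20 to 7.72, and miR-122, the hepatocyte list, was at 12.34, with the others at 6.68 to 8.41.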

How the results depend on the processing

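The genotype differences of both members stayed short of the threshold under 12 fits that each left out 1 array and 14 other settings, with limma's adjusted p from 0.443 to 1.00 and exact permutation p of 0.641 and 0.431. That of miR-26a lay between 0.09 and 0.29 with all arrays or blocks and between -0.039 and 0.23 leaving out each array. That of miR-26b lay between 0.06 and 0.47 leaving out each array. It was 0.089 with cyclic loess, 0.12 with scaling to the 75th percentile and 0.13 with no normalization, and -0.42 with the column blocks and in columns 1 to 8 alone, the latter added after the data were seen. The difference between the paralogues was 0.10 with scaling to the 75th percentile, 0.079 with cyclic loess and 0.11 with no normalization, and -0.39 to 0.0097 leaving out each array; the cause was not tested. Calls for genotype were 0 to 1 leaving out each array, the 1 without wild-type column 12, and 0 otherwise. The sex difference of miR-26b was 0.12 within the knockouts of the intensity table and -0.48 to -0.14 leaving out each animal, and that of miR-26a -0.054 to 0.25. The interaction was -0.44 to 0.25 for miR-26a and 0.57 to 1.15 for miR-26b. Calls for sex were 0 within the knockouts, with a trended robust variance or without the genotype covariate, 7 among miRNAs at or above the median level, and 0 to 5 leaving out each animal, the 5 without knockout 3. let-7d turned to 0.10, 0.050 and 0.12 with the same normalizations and 0.077 with the column blocks or columns 1 to 8 alone. The likeness of miR-376a to miR-26a was -0.20 and -0.30, and of miR-1982.1 -0.011, as given above. With the replicate block in the authors' table the differences were 0.12 for miR-26a and 0.25 for miR-26b, with 0 calls and 72 at an unadjusted p under 0.05, against 65 without it. Same-numbered knockouts and wild types have the same sex in the labels. Their deviations from the genotype means correlated at -0.12 to 0.18, and 2 of 6 knockouts correlated best with their own number. These values cannot settle whether the samples were paired. Dim strands such as miR-26b* are limited by signal over background.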

Other observations

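The wider spread among wild types than knockouts was not particular to the miR-26 pair. The SD over wild types exceeded that over knockouts for 462 of 710 miRNAs (65.1%), with a median SD of 0.35 in wild types and 0.28 in knockouts. For miR-26b the SDs were 0.69 and 0.35, and for miR-26a 0.48 and 0.38. Within genotypes the pooled SD of miR-26b, 0.55, was above that of 91.1% of miRNAs, and that of miR-26a, 0.43, above that of 75.8%, where the median miRNA had 0.33. These are descriptions of 12 arrays, with no test.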
